A study of Mus musculus with 2 samples.

Results

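The 500 widest stretches of open chromatin that 2 DNase-seq libraries of mouse urinary bladder had in common are described here, 500 of 53827 such stretches (0.929%) on chromosomes 1 to 19. DNase-seq reads out where the enzyme DNase I could cut chromatin, and a peak is a place of dense cuts. Both libraries came from urinary bladder tissue of female B6CASTF1/J mice aged 4 days, an F1 hybrid of C57BL/6J and CAST/EiJ, with no treatment named in the labels. The labels number the 2 biological replicates as separate females under a shared donor identifier, so the spread between them may be partly technical. They form 1 group with no contrast, and their alleles were not separated. Within each replicate, peaks with gaps of at most 50 bp were merged, and the merged sets were intersected. The 500 were chosen by the measured length of the intersected intervals, so no test is given for length or for any value that depends on it.

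Most mammalian gene starts lie in CpG islands, stretches rich in G, C and unmethylated CpG, which tend to hold fewer nucleosomes than the rest of the genome. Enhancers, the switches away from gene starts, are usually poorer in CpG and open in fewer cell types. Where a protein sits on the DNA it shields a few bases from the enzyme, and such a gap in the cuts inside a peak is called a footprint. The bladder wall holds smooth muscle and fibroblasts below an epithelium, the urothelium, and whole tissue mixes all of them. A low peak in a mixed tissue can be a site that few cells open or one that many cells open a little, and these cannot be told apart.

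Bladder markers were checked for an interval of any length lying over their transcription start site (TSS, the first base of an annotated transcript). All 4 fibroblast markers (Col1a1, Pdgfra, Vim and Foxf1) had one, as did 5 of 6 urothelial markers (Klf5, Upk1b, Upk3a, Cdh1 and Grhl3, but not Krt5) and 3 of 6 smooth muscle markers (Myh11, Cnn1 and Des, but not Acta2, Tagln or Srf). Of markers of other cells, 2 of 3 endothelial genes (Kdr and Cdh5) had one, while 0 of 3 leukocyte genes and 0 of 2 hepatocyte genes did, nor did Sox10 of glia. None of these start sites lay in one of the 500 widest intervals; the longest interval over a marker start was the 300 bp at Klf5, a transcription factor of the urothelium.

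Sequences of 200 bp are given to show the 2 kinds of DNA that the wide intervals hold, CpG-rich starts and CpG-poor stretches far from any TSS. All are on the plus strand of mm10, in lower case, with capitals for bases that lay in a footprint in both replicates. Each window but the last is the 200 bp of its interval, outside exons, with most such bases. The first comes from the widest interval of all, chr17:67354502-67354701, at positions -244 to -45 from the nearest TSS of Ptprm, which encodes a receptor tyrosine phosphatase of cell contacts. The next 3 come from the wide intervals with most footprints per kb. They are chr6:88842014-88842213, at -229 to -30 from a TSS of Abtb1, chr11:75173118-75173317, beside the starts of the microRNAs Mir212 and Mir132, and chr15:59648061-59648260, at -289 to -90 from a TSS of Trib1, a pseudokinase. The microRNA window lies in the noncoding gene 1700016P03Rik, and its nearest protein-coding gene is Hic1, a transcriptional repressor.
Ptprm: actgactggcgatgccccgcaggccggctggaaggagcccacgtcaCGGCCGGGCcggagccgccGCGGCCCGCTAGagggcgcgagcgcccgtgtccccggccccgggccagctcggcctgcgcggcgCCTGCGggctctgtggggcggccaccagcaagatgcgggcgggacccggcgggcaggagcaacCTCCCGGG
Abtb1: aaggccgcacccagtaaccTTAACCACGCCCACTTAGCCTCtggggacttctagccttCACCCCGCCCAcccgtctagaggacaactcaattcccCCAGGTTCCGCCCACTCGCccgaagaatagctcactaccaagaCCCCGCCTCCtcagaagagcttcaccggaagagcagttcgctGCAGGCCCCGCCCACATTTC
Mir212 (nearest protein-coding gene Hic1): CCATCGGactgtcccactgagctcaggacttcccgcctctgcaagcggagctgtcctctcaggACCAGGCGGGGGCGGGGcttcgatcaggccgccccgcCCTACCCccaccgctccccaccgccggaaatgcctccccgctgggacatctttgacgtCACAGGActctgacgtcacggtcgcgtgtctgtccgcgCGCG
Trib1: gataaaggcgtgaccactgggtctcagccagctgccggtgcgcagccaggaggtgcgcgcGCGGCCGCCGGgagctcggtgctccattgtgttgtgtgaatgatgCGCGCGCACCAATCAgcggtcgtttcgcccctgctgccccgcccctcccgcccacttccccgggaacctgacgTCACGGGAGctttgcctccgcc
The last 2 come from wide intervals with no TSS within 10 kb. One, chr17:31877894-31878093, was the longest such interval whose window held at least 3 places where footprints of both replicates overlapped, at positions -22289 to -22090 from the TSS of Sik1, a salt-inducible kinase. The other, chr3:96847131-96847330, is the centre of the longest such interval, in an intron of Pdzk1, a scaffold protein with PDZ domains, and no base of it lay in a footprint in both replicates. In the Sik1 window 13 bases were so shared, and at 2 of the 3 places the overlap was 1 or 2 bases long.
Sik1: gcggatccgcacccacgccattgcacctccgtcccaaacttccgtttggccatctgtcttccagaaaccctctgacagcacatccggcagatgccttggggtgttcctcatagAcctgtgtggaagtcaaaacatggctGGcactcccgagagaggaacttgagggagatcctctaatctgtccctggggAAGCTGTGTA
Pdzk1: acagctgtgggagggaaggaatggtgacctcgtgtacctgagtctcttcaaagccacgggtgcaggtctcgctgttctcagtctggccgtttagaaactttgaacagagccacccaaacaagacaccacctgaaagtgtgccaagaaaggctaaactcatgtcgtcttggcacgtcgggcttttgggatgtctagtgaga
The CpG count of these windows was 28 for Ptprm, 11 for Abtb1, 21 for Mir212 and 22 for Trib1, against 7 for Sik1 and 7 for Pdzk1. The GC box letters GGGCGG, chosen after these sequences had been seen, were found on either strand 3 times in the Abtb1 window, and all 3 matches touched a footprint of both replicates. The Mir212 window held 3 matches, 2 of them touching such a footprint. Ptprm and Trib1 held 2 each that touched none, and Sik1 and Pdzk1 held none. In windows of 200 bp around the tallest peak of replicate 1, 45.2% of the 500 held these letters, beside 39.4% of the 500 next in length and 29.4% of all intersected intervals. At matched positions the shares lay close together: 57.7% of wide intervals with a TSS and 62.8% of the others with one, and 13.7% and 12.1% of those over 1000 bp from a TSS.

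The 500 intervals were 578 to 1751 bp long with a median of 672.5 bp, and 34 of them reached 1000 bp. All intersected intervals had a median of 178 bp, and the 500 next in length one of 520 bp. The length at the border was shared by 3 intervals, of which those at Ttpa and Lsp1 (578 bp each) fell inside and the one at Tle3 (578 bp) fell outside by position on the genome. The next outside, at Mafg, was 576 bp long. Lengths that are multiples of 20 bp made up 76.8% of the 500, beside 60.9% of all intervals, so the lengths follow a grid in the peak lists and neighbouring ranks should not be read as different. The plot of lengths shows how far the 500 lie in the tail.

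**Figure D1:**
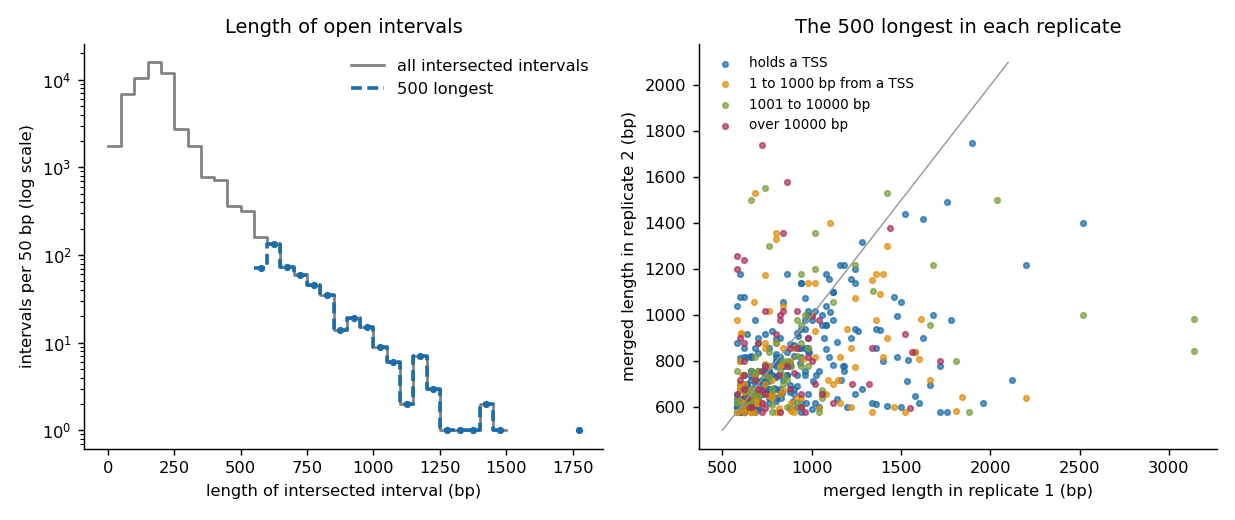
Lengths of open intervals. Left, intersected intervals per 50 bp of length (log scale), with the 500 longest dashed in blue: they start at 578 bp, where all intervals have a median of 178 bp. Right, the merged length of each of the 500 in replicate 1 (x axis) and replicate 2 (y axis), coloured by distance to a TSS: the points spread widely around the grey line of equal length.

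The longest interval, 1751 bp at chr17:67353170-67354920, held 3 start positions of Ptprm and ran 463 bp upstream of the outermost and 1287 bp downstream. Its summed peak height was 4.21 in replicate 1 and 3.10 in replicate 2, from 4 peaks in each. Second was Zmynd11, a reader of histone marks, with 1491 bp (chr13:9763681-9765171), summed heights of 4.30 and 2.19, and 11 annotated start positions. Their GC content was 70.0% and 74.4%. A height is the signal the authors deposited per peak. Its scale was not stated with the peak lists. The sum runs over the whole peaks of 1 replicate that overlap the interval, so a peak that reaches into 2 intervals counts in both.

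The other 10 of the 12 longest were of mixed kinds. Intervals over starts were found at Ppp2r3d (1440 bp, chr9:124439461-124440900), Tmem229a (1419 bp, chr6:24955122-24956540), Smarca2 (1220 bp, chr19:26606601-26607820) and Efna5 (1180 bp, chr17:62880541-62881720). Ppp2r3d encodes a phosphatase subunit, Smarca2 an ATPase of a chromatin remodelling complex and Efna5 an ephrin ligand. Smarca2 had summed heights of 3.94 and 2.01 and Efna5 of 2.30 and 1.80, whereas Tmem229a had 1.96 and 2.04 and Ppp2r3d 2.04 and 1.79. At Zfp827 the interval (1180 bp, chr8:79029121-79030300) lay 534 bp from the nearest TSS in an intron, with summed heights of 4.00 and 4.06. At 2 sites the start belonged to a noncoding gene: 4933426K07Rik near Galnt10 (1300 bp, chr11:57656721-57658020, summed heights of 1.05 and 1.20) and Gm48860, 90 bp from a start of the cytokine receptor gene Il3ra (1280 bp, chr14:14347141-14348420, 2.44 and 2.21).

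The remaining 3 of the 12 held no start and had summed heights below those at 4933426K07Rik. Pdzk1 held its interval (1380 bp, chr3:96846541-96847920) in an intron 13315 bp from a TSS, with summed heights of 0.726 and 0.959 and with 9 footprints in replicate 1 and 0 in replicate 2. Nfic, a transcription factor gene, held its interval (1220 bp, chr10:81433601-81434820) in an intron 2596 bp from a TSS, with sums of 0.992 and 1.01 and with 0 and 6 footprints. Ezr, whose product ties the membrane to actin, held one over an exon 7381 bp from a TSS (1220 bp, chr17:6734221-6735440), with sums of 0.657 and 0.884 and 2 footprints in each replicate. The maps of single regions show 1 of these sites beside wide gene starts.

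**Figure D2:**
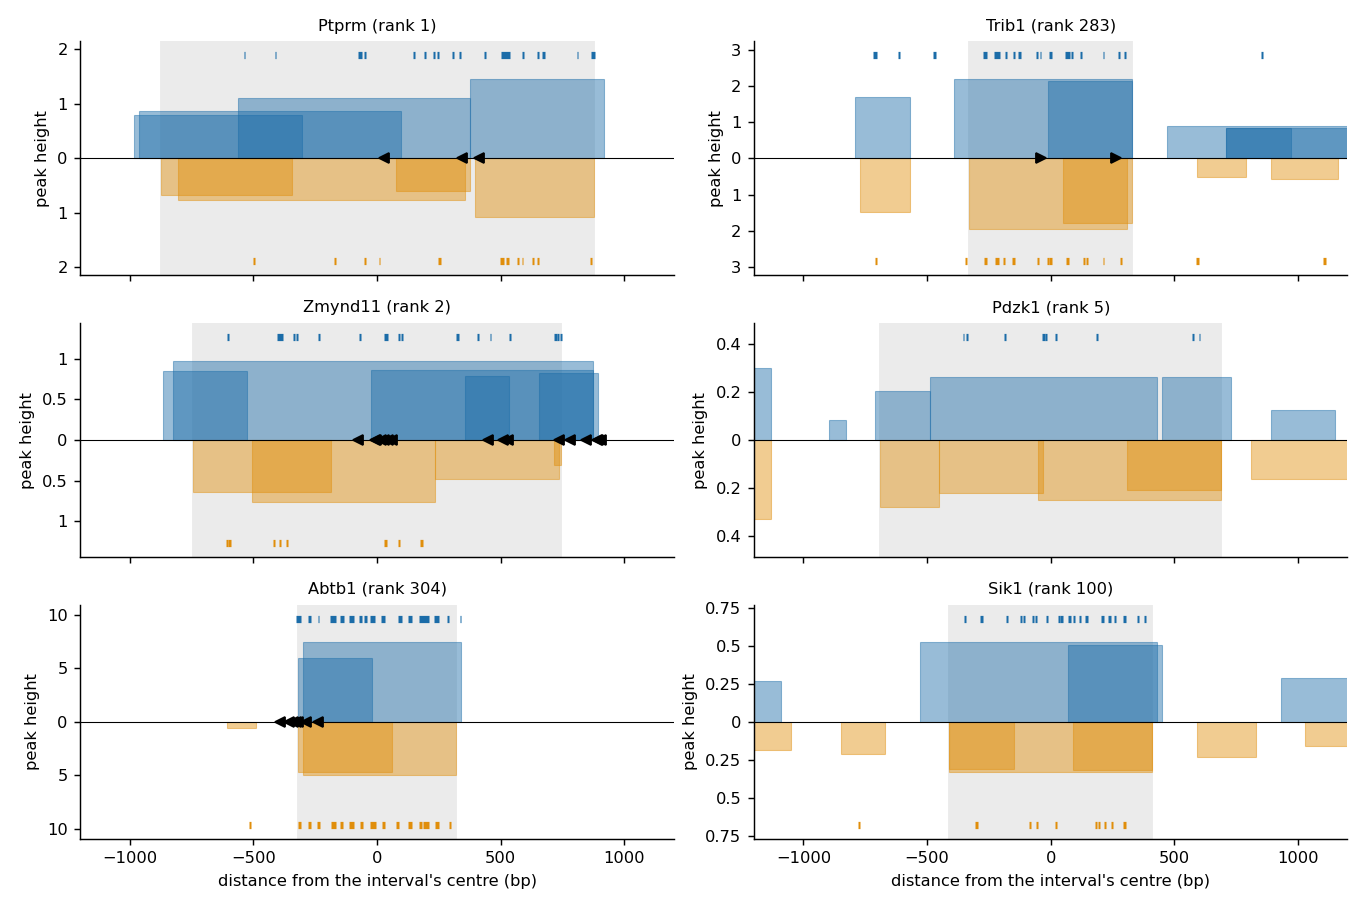
Maps of 6 of the wide intervals, with distance from the interval's centre in bp on the x axis and peak height on the y axis, replicate 1 upward in blue and replicate 2 downward in orange. Boxes are peaks, ticks are footprints, arrowheads are annotated start sites with their direction, and the grey band is the intersected interval; the height axes differ between panels. The tallest peaks touching the band are 7.47 and 4.93 at Abtb1 and 0.261 and 0.279 at Pdzk1.

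Position relative to genes came next. Of the 500, 274 (54.8%) held a TSS, 102 (20.4%) lay 1 to 1000 bp from one, 66 (13.2%) over 1000 and up to 10000 bp and 58 (11.6%) farther, measured from the interval's edge to any GENCODE M21 transcript. Among all intersected intervals 22.6% held a TSS and 28.8% lay over 10000 bp away, and among the 500 next in length the shares were 45.6% and 12.8%. This makeup depended on both libraries being used. The 500 longest merged intervals of replicate 1 alone held a TSS in 47.4% of cases and those of replicate 2 alone in 27.2%, and the shares over 10000 bp away were 19.2% and 28.6%. Counting starts of protein-coding genes alone, 247 of the 500 (49.4%) held one. Of the 226 without a TSS, 93 touched an exon, 65 lay in introns and 68 between genes. As shares of the 500 these were 18.6%, 13% and 13.6%, beside 13.9%, 31.2% and 32.3% of all intersected intervals. A single exon base was enough to count, which a longer interval meets more readily, and the part of length in this was not tested.

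Where an interval held starts of 1 protein-coding gene, its reach was measured from the most upstream of the starts inside it. For 240 such intervals the median reach was 234.5 bp upstream and 462 bp downstream, and 176 (73.3%) reached farther downstream. The stretch between several starts counts as downstream here, which raises that share. Starts beyond the edge were not used, as at Zmynd11, which is scored with 11 bp upstream. Narrower intervals with a TSS were not measured in this way. Tmem229a reached 243 bp upstream and 1175 bp downstream, and Efna5 403 and 776 bp. The opposite was seen at Mtrf1l, a mitochondrial release factor gene, with 590 bp upstream and 29 bp downstream, and at Abtb1, with 556 and 83 bp. Of all bases in the 500, 19.1% were 5' untranslated exon and 13.9% coding exon, beside 13.5% and 6.42% over all intervals.

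Starts of several genes shared an interval in few cases. Starts of at least 2 genes lay in 29 of the 500 (5.8%), and starts on both strands in 24 (4.8%), where the other intervals with a TSS gave 11.3% and 10.2% and the wide ones with a TSS 10.6% and 8.76%. The interval with starts of most genes was 580 bp at Hoxa11, a patterning gene of the hindgut, urogenital tract and limb, with its antisense transcript Hoxa11os and Gm28032 (chr6:52245701-52246280). Its merged interval spanned 1760 bp in replicate 1 and 580 bp in replicate 2, with summed heights of 2.84 and 0.613. Next were 1000 bp shared by Mir8104 and Ppm1h (chr10:122678561-122679560) and 980 bp shared by 4933406I18Rik and Pde3b, a phosphodiesterase gene (chr7:114414901-114415880).

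In base composition the 500 fell into 2 kinds that followed position. An interval was called CpG-rich with a GC content of at least 50% and a CpG count of at least 0.6 times the count its C and G content would give. By this measure 332 (66.4%) were CpG-rich, beside 64% of the 500 next in length and 35.2% of all intervals. Of the 274 that held a TSS, 241 (88%) were CpG-rich, beside 81.5% of the other intervals with a TSS. Of the 124 that lay over 1000 bp from a TSS, 16 (12.9%) were CpG-rich, beside 9.83% of the other intervals at such distances. Median GC content was 66.0% over the 500, 69.8% over those with a TSS and 53.8% over those more than 1000 bp away. The 500 next in length had 65.4% and all intervals 57.6%. The median ratio of observed to expected CpG was 0.816 for wide intervals with a TSS and 0.243 for those away from one. In the 500 longest of replicate 1 alone the median GC content was 59.0%, and in those of replicate 2 alone 54.5%.

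The 16 CpG-rich intervals away from starts lay mostly over coding sequence, with 55.6% of their bases in coding exons. Named after their values had been seen, they included Lor (940 bp) and Tchh (705 and 580 bp), which encode structural proteins of skin and hair follicle. Lor had tallest peaks of 0.833 and 0.705 in replicates 1 and 2. The longer Tchh interval had 0.754 and 0.434 and the shorter 1.27 and 0.646. Sox4, a transcription factor gene, had an interval of 825 bp over an exon 1213 bp from the TSS, with 0.773 and 0.596. Repeats took up little of the 500: the median masked share was 4.66%, and 4 intervals (0.8%) were over 50% masked, beside 4.95% of all intervals.

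The opposite kind, starts that were not CpG-rich, made up 33 of the 500, among them Ppp2r3d with a CpG ratio of 0.372 and Gm48860 by Il3ra with 0.304. The 3 wide intervals at Il3ra measured 1280, 600 and 600 bp and lay within 4075 bp, with CpG ratios of 0.304, 0.305 and 0.397 at GC contents of 58.4%, 64.8% and 63.5%.

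Wide did not mean tall. The tallest peak inside an interval had a median height of 0.899 in replicate 1 and 0.680 in replicate 2, beside 0.889 and 0.661 in the 500 next in length and 0.866 and 0.705 over all intersected intervals. Heights come in whole steps of a size fixed for each sample (100% of peaks, to within 0.02 of a step). The medians were 193 and 163 steps. If 1 step is 1 independent count, which was not tested, a single interval of those heights has a 95% exact Poisson interval of 167 to 222 and 139 to 190 steps, for counting error only. Among the 500 tallest were 0.929% of all intervals and 4 (0.8%) of the 500 next in length. Of the 500 widest 2 (0.4%) were, and with counts this small no difference is read from them. These 2 were Abtb1, with tallest peaks of 7.47 and 4.93, and Camta1, a calmodulin-binding transcription activator gene, with 7.47 and 4.22.

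Set against narrower intervals of the same position, the wide ones were lower. Wide intervals with a TSS had median tallest peaks of 1.09 and 0.805 in replicates 1 and 2, and the 11872 other intervals with a TSS had 2.32 and 1.68. Away from starts, over 1000 bp, the medians were 0.270 and 0.271 for the wide and 0.643 and 0.575 for the other 30239. Per kb of interval the summed height was 2.61 and 2.09 for wide starts, 0.722 and 0.755 for wide intervals away from starts, and 6.01 and 5.00 for all intervals. Across the 500, length and mean tallest height had a Spearman rho of -0.07 and a Pearson r of -0.11, and across all 53827 intervals 0.39 and 0.18. These are descriptions across intervals of the same libraries, and length enters the ranking.

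**Figure D3:**
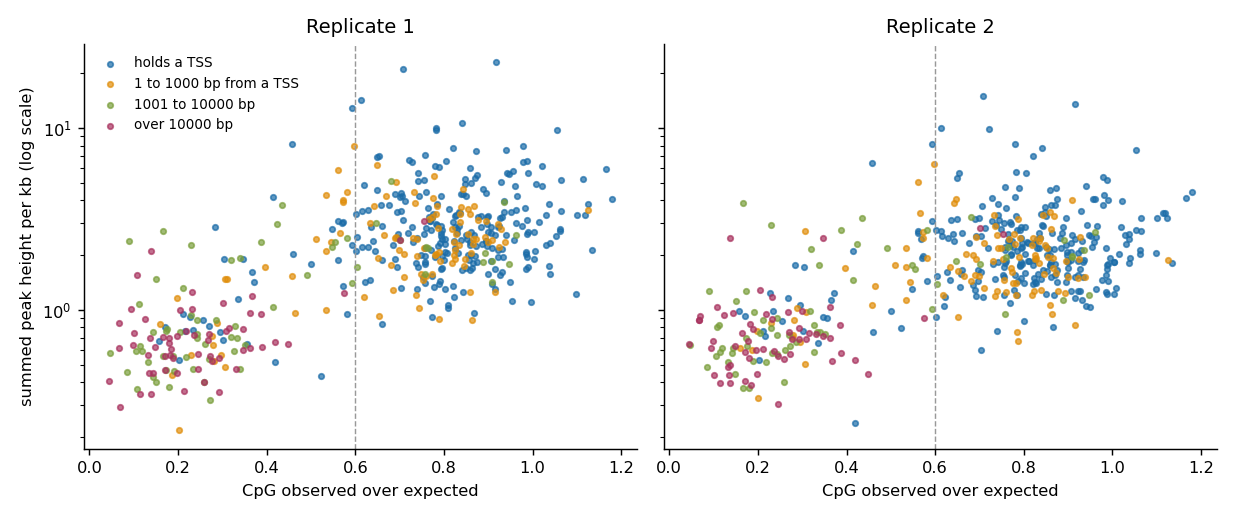
Summed peak height per kb (log scale) against the ratio of observed to expected CpG for the 500 widest intervals in replicate 1 (left) and replicate 2 (right), coloured by distance to a TSS, with the dashed line at 0.6. Intervals with a TSS gather at high CpG ratio, with median heights of 2.61 and 2.09 per kb, and those over 1000 bp away at low ratio, with 0.722 and 0.755.

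The extremes in height per kb show the span between the kinds. Camta1 (580 bp, chr4:151861681-151862260) had 23.0 in replicate 1 and 13.5 in replicate 2, Abtb1 (640 bp, chr6:88841901-88842540) 21.01 and 15.0, and Mtrf1l (620 bp, chr10:5823881-5824500) 14.2 and 10.03. All 3 held the TSS. The lowest were an interval by the small noncoding gene Gm25271 in an intron (600 bp, chr13:13790221-13790820), with 0.217 and 0.327, one 40892 bp from Mro (597 bp, chr18:73904564-73905160), with 0.343 and 0.398, and one over an exon of the efflux pump gene Abcc1 (620 bp, chr16:14443081-14443700), with 0.345 and 0.397. The lowest 3 and the highest 3 did not overlap in either library, as the choice by rank fixes.

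A wide interval was seldom 1 broad peak. The median was 2 peaks in each replicate, and 25 of the 500 (5.0%) consisted of a single peak in each, where 93.8% of all intervals did. One such case, picked after its values had been seen, was Tbx3, a T-box factor gene, whose 660 bp held 1 peak of 3.52 in replicate 1 and 1 of 2.50 in replicate 2. Peaks that overlapped one another by at least 1 bp were present in 300 of the 500 (60%) in replicate 1, in 262 (52.4%) in replicate 2 and in 174 (34.8%) in both, as in the maps of Ptprm and Zmynd11. Merging such peaks lengthens an interval, so the choice by length favours them. No such share is given for other intervals, so whether it is particular to wide ones is not known.

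The 500 held a median of 6 footprints in replicate 1 and 5 in replicate 2, which is 8.12 and 6.58 per kb, beside 7.69 and 7.14 in the 500 next in length and 12.5 and 11.1 over all intervals. Length chose the intervals and is also the divisor here. Wide intervals with a TSS had 10.6 and 7.59 per kb and the other intervals with a TSS 16.7 and 15.0. Away from starts the values were 4.29 and 4.87 for wide intervals and 11.6 and 10 for the others. No footprint in either replicate was found in 23 of the 500 (4.6%) and in 11.8% of all intervals, which are shorter. Taken over the mean of both replicates the median was 7.61 per kb, and it was 5.70 for the 500 longest of replicate 1 alone and 4.08 for those of replicate 2 alone.

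Most footprints per kb were counted at Abtb1 (15 in each replicate over 640 bp), at Mir212 and Mir132 (16 and 10 over 660 bp), at Trib1 (14 and 12 over 660 bp), at Camta1 (12 and 10 over 580 bp) and at Mir7671 (12 and 10 over 580 bp, chr11:53763581-53764160). Mir7671 lies 5854 bp from Irf1, a transcription factor gene of the interferon response. All 5 held a TSS, and the first 3 supply the footprinted sequences above. Bases in a footprint of both replicates were present in 338 of the 500 (67.6%), beside 65.0% of all intervals, which are shorter. With a TSS the share was 79.9% for wide intervals and 86.3% for the others. Over 1000 bp away it was 46.0% for wide intervals and 60.3% for the others.

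**Figure D4:**
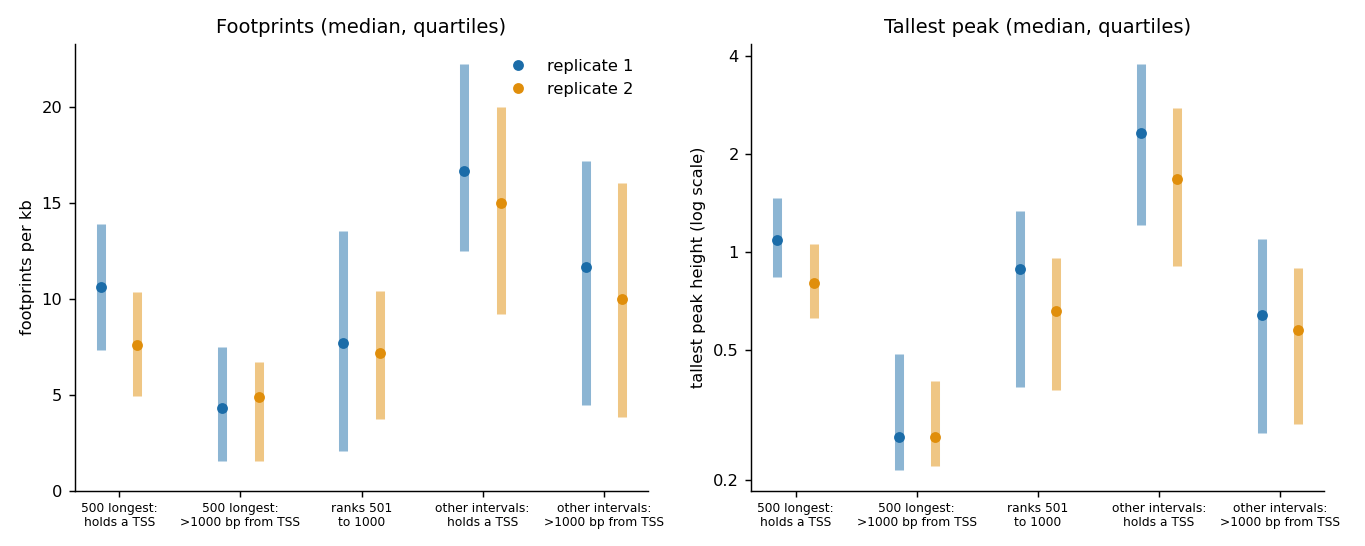
Medians (points) and quartiles (bars) of footprints per kb (left) and of the tallest peak's height (right, log scale) in replicate 1 (blue) and replicate 2 (orange) for sets of intervals. The wide intervals with a TSS lie below the other intervals with a TSS in both panels, and the wide intervals over 1000 bp from a TSS lie lowest, with 4.29 and 4.87 footprints per kb.

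The replicates differed by kind of interval. Summed heights were higher in replicate 1 for 335 of the 500 (67%) and in replicate 2 for 165. Over all intervals 75.1% were higher in replicate 1. With a TSS inside the counts were 206 and 68, with a median log2 ratio of replicate 2 to replicate 1 of -0.39. The other intervals with a TSS had a median of -0.42, and 92.5% of them were higher in replicate 1. Over 1000 bp away the counts for wide intervals were 60 and 64, with a median of 0.01. The other intervals at such distances had -0.19, and 65.8% were higher in replicate 1. All intersected intervals had a median of -0.29. Summed heights of the replicates had a Spearman rho of 0.83 over the 500 and of 0.95 over all intervals. What part library depth or the scaling of the heights has in this was not tested.

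Every interval had to be at least 578 bp long in both replicates, which restricts how lengths can vary. The merged interval was longer in replicate 1 for 315 of the 500 (63%), longer in replicate 2 for 161 and equal for 24, with medians of 819.5 and 740 bp. Over all intervals 59.9% were longer in replicate 1 and 26.4% in replicate 2. Spearman's rho of the lengths was 0.35 over the 500 and 0.46 over all intervals. Lrrc27 had the largest ratio, 3140 bp in replicate 1 and 846 bp in replicate 2 (chr7:139222415-139223260), with summed heights of 0.624 and 0.617. The same stretch of 3140 bp in replicate 1, with the same sum, also gave the wide interval of 985 bp at Lrrc27. Smarca2 had a second wide interval (640 bp, chr19:26605821-26606460) from the same merged stretch of 2200 bp in replicate 1, with sums of 2.86 and 1.24, and Gm27543 in the Hoxa cluster (580 bp, chr6:52252701-52253280) had 1880 and 580 bp. In the other direction Gm833 had 720 and 1740 bp (chr4:152732781-152733500), Phactr3 660 and 1500 bp (chr2:178128461-178129120) and Maml3, which encodes a coactivator of Notch signalling, 680 and 1531 bp (chr3:52103501-52104151).

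Low deposited false discovery rates covered more of the wide intervals in replicate 1 than in replicate 2, as over all intervals. In replicate 1 a median of 100% of a wide interval's length had a rate of at most 0.001, and in replicate 2 81.5%. Over all intervals the medians were 100% and 82.9%. For CpG-rich wide intervals the medians were 100% and 68.7%, and for the other wide ones 100% and 100%. The stricter of the deposited peak lists covered the whole length of 230 intervals (46%) in replicate 1 and of 116 (23.2%) in replicate 2. It touched no base of 6 (1.2%) and 28 (5.6%). Over all intervals, which are shorter, the shares covered whole were 51.9% and 40.2%, and those with no base touched 25.02% and 33.14%. At Ptprm the stricter list covered 83.0% and 57.3% of the length, and at Zmynd11 100% and 40.5%.

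Wide intervals away from starts stood close to another one more often than those near starts. Within 10 kb of another of the 500 were 84, in 39 groups of which 5 had at least 3. Of the 124 over 1000 bp from a TSS, 44 (35.5%) were in such groups, and of the remaining 376, 40 (10.6%). Both counts depend on where the groups happen to lie, and neighbours may come from 1 merged stretch in 1 library, so they are not independent. No such share is given for shorter intervals, so whether the contrast is particular to wide ones is not known.

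The largest group, 4 intervals in 6200 bp (chr11:57652881-57659080), lay near Galnt10, a gene of mucin-type glycosylation, around the noncoding 4933426K07Rik. The intervals were 640, 1000, 1300 and 640 bp long, with no peak above 0.340 in replicate 1 or 0.317 in replicate 2. A chain of 3 near Sik1 (chr17:31870921-31878200) reached heights of 0.526 and 0.400, and the other wide interval nearest to Sik1 lay 33697 bp from it. The middle one of the chain, 660 bp, held no footprint in either library, while the one printed above, 820 bp, held 20 and 9. The 3 near Actrt2 (chr4:154698021-154711200), 30154 to 42394 bp from its start, peaked at 0.279 and 0.346. The other groups of 3 lay at Il3ra and Hoxa11.

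The groups at Il3ra and Hoxa11 were taller than those near Galnt10, Sik1 and Actrt2. The Hoxa11 group spanned 9740 bp with tallest peaks of 0.978 and 0.613, and the Il3ra group had 0.680 and 0.630. In all, 46 protein-coding genes were nearest to more than 1 wide interval, and 398 to 1. At least 3 wide intervals were nearest to each of 8 genes: Galnt10 and Sik1 with 4, and Actrt2, Azin1, Hoxa11, Il3ra, Mc3r and Zfp618 with 3. Those near Mc3r, a melanocortin receptor gene, lay at 22392, 24812 and 51752 bp, and those in Zfp618 at 36427, 73227 and 74527 bp from its start.

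Of the 58 wide intervals with no TSS within 10 kb, 1 lay over 100000 bp from any. After Pdzk1 the longest were 980 bp between genes at 16447 bp from G930009F23Rik (chr15:38471581-38472560), with no footprint in either replicate and summed heights of 1.16 and 0.513. Then came 940 bp at 42394 bp from Actrt2 (chr4:154710261-154711200), with 0.540 and 0.525, and 920 bp at 63635 bp from Gm30932 (chr1:190657961-190658880), with 0.615 and 0.488. Last was 920 bp at 11445 bp from Lbh, a developmental cofactor gene (chr17:72905941-72906860), with 0.657 and 0.550. The sums of the last 3 lay below the medians of all intervals (0.889 and 0.717) in both libraries, and that of the first only in replicate 2. All 4 held 0 to 3 footprints in each library.

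Lists of genes were then set against the 500. Of the 20780 protein-coding genes on chromosomes 1 to 19, 254 had a TSS inside a wide interval, 1.22%. Any intersected interval covered a TSS of 10596 (51.0%), and 2.40% of these were among the 254. Of 433 genes on 18 lists of bladder cell types, signals and general functions, 9 (2.08%) had a TSS in a wide interval, and 12 lists had none. With so few, the counts describe single genes and not the lists.

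Among housekeeping genes an interval of some length covered a TSS of 24 of 24, and a wide one covered 0 of 24, where 2.40% of all open genes had a wide one. Smooth muscle genes had 15 of 22 open and 0 wide, urothelial genes 12 of 25 and 0, and corepressor and chromatin genes 21 of 24 and 0. Circadian clock genes had 16 of 20 and 0, imprinted genes 15 of 20 and 0, KLF and SP factors 13 of 20 and 0. In the lists of other cell types the counts of open starts were 7 of 20 for endothelium, 5 of 18 for glia and neurons, 2 of 15 for heart and skeletal muscle, 1 of 20 for leukocytes and 0 of 15 for hepatocytes. None of these lists had a wide start.

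**Figure D5:**
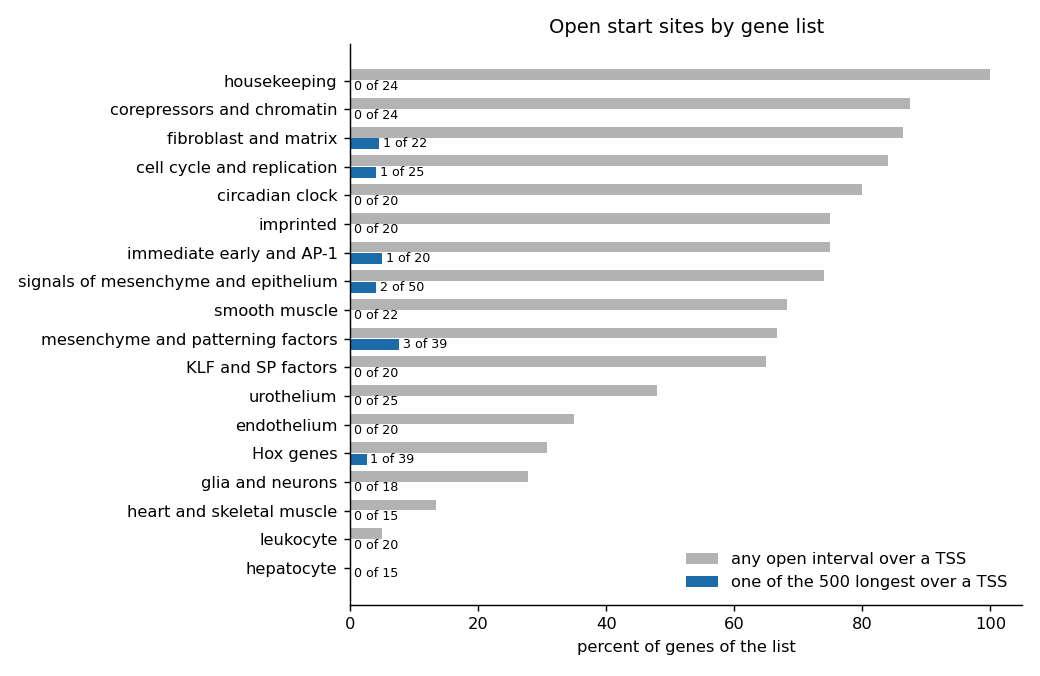
Percent of the genes of each list (x axis) with any intersected interval over a TSS (grey bars) and with one of the 500 longest over a TSS (blue bars, with the count beside each). Housekeeping genes reach 24 of 24 for any interval and 0 of 24 for the longest, and the highest blue bar is 3 of 39 mesenchyme and patterning factors.

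Mesenchyme and patterning factors had 3 of 39 genes with a wide start and 26 of 39 with any open start. These were Foxp1, a forkhead factor (800 bp, chr6:99520861-99521660, summed heights of 2.86 and 1.49), Nfib (780 bp, chr4:82505201-82505980, 1.32 and 2.06) and Tbx3 (660 bp, chr5:119670401-119671060, 3.52 and 2.50). Wide intervals near but not over a start of this list were those of Nfic, Sox4 and Prrx1. Prrx1 had 720 bp at 1028 bp from a TSS, with sums of 1.74 and 1.29. Nfib, Tbx3, Prrx1 and the second interval of Nfic were added after their values had been seen. Nfic had a second one of 700 bp, 2174 bp from a TSS, with sums of 1.32 and 1.52. Foxp1 and Tbx3 were higher in replicate 1, and Nfib was higher in replicate 2, where 2 peaks and not 1 entered the sum.

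Hox genes had 12 of 39 with an open start and 1 of 39, Hoxa11, with a wide one. The Hoxa11 group also held 780 bp over an exon, 73 bp from a start of Hoxa11os, with summed heights of 1.16 and 0.759. Hoxa10 had a wide interval 124 bp from its start (780 bp, chr6:52232421-52233200), with sums of 2.35 and 1.33 and 3 and 0 footprints. Hoxd11 had one 24 bp from its start (760 bp, chr2:74679581-74680340), with 1.17 and 0.951 and 13 and 5 footprints. Genes of these numbers pattern the tail end of the body, the urogenital tract included.

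Among signals between mesenchyme and epithelium, 37 of 50 had an open start and 2 of 50 a wide one. Of the 50, 9 were the nearest protein-coding gene of a wide interval, as were 444 of all 20780 protein-coding genes. This difference was not tested. Tgfb1, the ligand of the TGF-beta pathway, had 800 bp over its start (chr7:25686721-25687520), with sums of 2.75 and 2.04. Skil, an inhibitor of SMAD transcription factors in that pathway that was added after its values had been seen, had 580 bp (chr3:31094561-31095140), with 5.64 and 4.37. Ltbp1, which holds latent TGF-beta in the matrix and was on the fibroblast list, had 1140 bp (chr17:75005361-75006500), with 2.66 and 1.98, and was the 1 of 22 fibroblast genes with a wide start. All 3 were higher in replicate 1.

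In the Hedgehog pathway, Shh, the ligand, had 900 bp at 7976 bp from its start (chr5:28458381-28459280), with sums of 0.801 and 0.605. That interval lay over an exon, 107 bp from a start of the antisense gene 9530036O11Rik. The Hedgehog receptor Ptch1 had 581 bp at 57 bp from the start (chr13:63564637-63565217), with 2.46 and 1.17, and the transducer Smo had 600 bp at 207 bp (chr6:29735901-29736500), with 2.20 and 0.775. Ptch1 and Smo were added here after their values had been seen. Both merged intervals were longer in replicate 1, with 1520 and 581 bp at Ptch1 and 1220 and 600 bp at Smo. Rarg, a retinoic acid receptor gene, had 740 bp at 961 bp from its start, with 2.76 and 2.87.

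Single genes stood for the other lists. Fosl2, a subunit of the transcription factor AP-1, was the 1 of 20 immediate early genes with a wide start, with 620 bp and sums of 6.64 and 4.84 (chr5:32135321-32135940). A second wide interval lay 48 bp from a start of Fosl2, with 580 bp and 1.37 and 0.884. Rb1, which restrains entry into the cell cycle, was the 1 of 25 in its list, with 620 bp and 3.24 and 2.11 (chr14:73325681-73326300). Cdkn1a, an inhibitor of cyclin-dependent kinases, had 1080 bp at 340 bp from its start, with 1.52 and 1.30, and Cdk6, one of those kinases, 980 bp at 632 bp, with 1.55 and 1.59. Pdgfra, a fibroblast receptor, had 640 bp at 275 bp from its start, with 1.57 and 1.13, Brd2 780 bp at 27 bp, with 4.59 and 3.95, and Gnas, an imprinted gene, 580 bp at 294 bp, with 2.57 and 1.94. The 1 hepatocyte gene nearest to a wide interval, Pck1, was 27578 bp away from it.

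Motif letters were counted on both strands in 300 bp around the tallest peak of replicate 1, so every interval gave a window of the same length. The AP-1 letters TGANTCA were found in 5.6% of the 500, in 12.1% of those over 1000 bp from a TSS and in 7.93% of all intervals, where the other intervals over 1000 bp away gave 10.4%. The SP/KLF letters GGGGCGGGG, which contain the GC box, were found in 12.2% of the 500, in 17.9% of those with a TSS and in 9.03% of all intervals, and in 22.1% of the other intervals with a TSS. The core motif of CTCF, the protein that anchors chromatin loops, was found in 3 of the 500 (0.6%), in 7.17% of all intervals and in 10.8% of the other intervals over 1000 bp from a TSS. In the 124 wide intervals at such distances it was found in 1 (0.806%).

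In these windows, letters typical of strong gene starts were rarer in wide starts than in other starts. The windows were centred on the tallest peak and not on the TSS, so in a wide interval they can lie away from the start. CCAATCAG of NF-Y was found in 2 of the 274 wide starts (0.730%) and in 5.55% of the other starts. CCGGAAGT of ETS factors was found in 7 (2.55%) and 8.09%, and TGACGTCA of CREB factors in 4 (1.46%) and 3.61%. The E-box CACGTG was found in 10 (3.65%) and 10.4%. The NRF1 and YY1 motifs were found in 3 (0.6%) and 2 (0.4%) of the 500, beside 0.654% and 0.474% of all intervals. TEAD (ACATTCCA) letters were found in 4 (0.8%) beside 1.18% of all intervals, and the SRF CArG box in 6 (1.2%) beside 1.33%. The HNF4 letters CAAAGTCCA were found in 2 (0.4%) beside 0.329%. The Mir212 and Trib1 sequences above each hold a match to the SP/KLF and to the CREB letters, and Trib1 one to those of NF-Y. None of these shares was tested.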

How the data were processed

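DNase-seq of urinary bladder was measured in 2 samples, and per the deposited file descriptions the peaks, rates and footprints of each were derived from its own alignments to mm10, with replicates not pooled. The aligner, callers, versions, filters and total read depth were not given in the sources used here. For every peak the authors deposited a signal value, called height here, in whole steps whose meaning was not stated. Of the deposited p-value columns, that of stretches of bases holds false discovery rates (q-values) up to 0.05, and that of footprints holds 0.01 in every row and gives no ranking.

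The longer peak list of each replicate (96518 and 122870 peaks) was used, and the shorter (61623 and 77545) only as an alternative. Peaks with gaps of at most 50 bp were merged (89622 and 116027 intervals) and intersected, with ties in length ordered by chromosome and start. A footprint was counted where its centre lay inside. Starts and exons came from GENCODE M21, and base composition, repeats and sequences from the RefSeq copy of GRCm38, whose chromosomes are those of mm10. Analyses used Python 3.11.15, numpy 2.4.6, pandas 2.3.3, scipy 1.17.1 and pysam 0.24.0. Interval routines were checked on simulated data.

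The intervals and gene lists were chosen with earlier results of these data known. Named in the text are the 12 longest, the 3 longest per gene list, the 5 longest with no TSS within 10 kb, the 5 with most footprints per kb, the 3 highest and 3 lowest in height per kb, the 3 most unequal in length in each direction, the 3 with starts of most genes and those at the length border; others are said to be added. Alternatives were the gap, the peak list, the union, each replicate alone, chromosome X and the kind of start. No test was made, since 1 group has no contrast. Of the listed genes, 433 of 437 were matched on these chromosomes.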

Additional observations from a re-analysis of the deposited data

How the results depend on the processing

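Membership of the 500 depends on how intervals are built. The 500 shared 356 intervals with those made with no gap merged, 242 with the stricter lists, 181 with a gap of 200 bp, 129 with the union, 140 with replicate 2 alone and 125 with replicate 1 alone; with chromosome X added, 478 overlapped. The shortest length was 960 bp with a gap of 200 bp and 1180 bp with the union, and 860 to 1038 bp with 1 replicate left out. The share with a TSS was 49.2% with the stricter lists, 42% with the union, 49.4% with protein-coding starts and 27.2% to 47.4% with 1 replicate left out. The share over 10000 bp from a TSS was 19% with a gap of 200 bp, 17.6% with the stricter lists, 20% with the union, 17% with protein-coding starts and 19.2% to 28.6% with 1 replicate left out. Median GC content was 60.4% with a gap of 200 bp, 56.8% with the union and 54.5% to 59.0% with 1 replicate left out. Median footprints per kb were 5.65 with a gap of 200 bp, 9.38 with the stricter lists, 3.73 with the union and 4.08 to 5.70 with 1 replicate left out. The other 13 of 37 values moved by less than the replicates or the counting interval allow. The cause was not tested. Total depth is unknown, so what it limits could not be measured, and there were 2 samples. No paired analysis was possible because the samples form a single group.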

Other observations

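Genes of several developmental functions also had a wide interval over a start; they were picked out after their values had been seen. Gas1, which encodes a Hedgehog co-receptor, had 620 bp made of a single peak in each replicate, with heights of 3.17 and 2.38. Dll1, a Notch ligand gene, had 800 bp with summed heights of 1.59 and 1.61, and Kitl, the ligand of the receptor Kit, 580 bp with 1.16 and 1.61. Lox, which cross-links collagen, had 640 bp with 1.96 and 1.70. Runx2, a transcription factor gene, had 657 bp with 1.69 and 0.688, and Nrp1, a receptor of vessels and axons, had 620 bp with 1.72 and 0.805 from merged intervals of 1960 and 620 bp. Vegfc, a growth factor of lymph vessels, had 600 bp with 0.996 and 1.76. Nr3c1, the glucocorticoid receptor gene, had 1080 bp with 5.43 and 3.79, and 18 and 14 footprints.

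Ppp2r3d, Il3ra and Csf2ra, whose human counterparts lie in the pseudoautosomal region of the sex chromosomes, are autosomal in the mouse, and each had a wide interval over or within 90 bp of a start, at ranks 3, 7 and 23. Csf2ra had 1080 bp with summed heights of 6.24 and 4.38, 21 and 19 footprints and a CpG ratio of 0.955. Ppp2r3d had 2.04 and 1.79, 14 and 17 footprints and a ratio of 0.372. They were noticed after the ranking was seen, and nothing about them was tested.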
